A study of Mus musculus with 15 samples.

Results

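S100a4, S100a10 and S100a11 were followed in 15 single Tomato+ cells of inguinal adipose tissue, the fat depot under the skin of the mouse groin. The 3 genes were chosen by name, as members of the S100 family, out of 8446 rows of the expression table, and all 3 have a row. The cells came from adult C57BL/6 mice of the genotype Prrx1-CreERT;Tomato, in which a tamoxifen-activated Cre under Prrx1 control permanently switches on the Tomato reporter. Every mouse received tamoxifen at 2 mg per 30 g of body weight daily over 3 days. The fat was digested with collagenase at 2 mg/ml for 1 h at 37 °C, sorted for Tomato, and single cells were picked by eye under fluorescence. The cells form 1 group with no control group. How many mice were used is not stated, so cells cannot be assigned to animals: together they make up 1 sample, and no test was run. Levels are in log2(FPKM + 1), the logarithm's base being inferred from the values. Detection means at least 1 FPKM.

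S100 proteins are small calcium sensors of the cytoplasm that work mostly as dimers. Each subunit holds a pair of EF-hand loops, and calcium binding opens a surface that grips a target protein. S100A4 is also known as fibroblast-specific protein and binds non-muscle myosin. S100A10 is the family member that no longer needs calcium: it is held in the open form and joins annexin A2 at the plasma membrane, where the complex binds plasminogen and its activator. S100A11 binds annexins A1 and A2. In fat, S100A4 and S100A10 are familiar transcripts of fibroblast-like stromal cells, and S100A4 is also made by macrophages.

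The difference in calcium binding can be seen in the coding sequence of the second EF-hand loop, which is why these stretches are shown. They are 36 bases of the GENCODE M21 coding sequences, 5′ to 3′, found in S100a4 by the codon pattern of a calcium-binding loop and placed in the other genes by aligning the coding sequences. Capitals mark those of the 5 calcium-contacting codons, at loop positions 1, 3, 5, 9 and 12, that match the pattern (Asp, Asn, Asp, Asp and Glu codons).
S100a4: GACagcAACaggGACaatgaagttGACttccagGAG
S100a10: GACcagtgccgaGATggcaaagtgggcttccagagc
S100a11: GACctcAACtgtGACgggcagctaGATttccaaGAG
S100a1: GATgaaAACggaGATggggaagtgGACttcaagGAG
S100a4, S100a11 and S100a1 matched the pattern at all 5 codons, and S100a10 at 2. The loop covers codons 63 to 74 of the 101 in S100a4, codons 60 to 71 of the 97 in S100a10, and codons 63 to 74 of the 98 in S100a11. Over the whole coding sequence the members are far apart: S100a4 and S100a10 were identical at 51.9% of aligned bases, S100a4 and S100a11 at 51.0%, and S100a10 and S100a11 at 50.5%.

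All 3 genes lie on chromosome 3 (GRCm38, plus strand), but not side by side. S100a4 (ENSMUSG00000001020) spans 90603771 to 90606045, within the main S100 cluster. S100a11 (ENSMUSG00000027907) spans 93520488 to 93526287 and S100a10 (ENSMUSG00000041959) 93555080 to 93564643, with 28.8 kb between them and 2914 kb between S100a4 and S100a11. Reads of neighbours and copies limit these values. S100a4 overlaps Gm42674, a gene on the same strand that has no row and holds 58.1% of the 31-base words of the S100a4 transcript. S100a11 shares 47.0% of its words with Gm12854 and 33.1% with Gm7665, while S100a10 shares 0.763% with its closest match. No label says how shared reads were counted, so the levels of S100a4 and S100a11 are uncertain to that extent.

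The 250 bases upstream of the RefSeq start (GRCm38.p6) are given for S100a4 and S100a11, which followed different patterns over the cells. Both strands were searched for a TATA box (letters TATAAA), for a GC box (letters GGGCGG) and for an AP-1 element, which Fos and Jun bind (letters TGANTCA). Capitals mark matches, and the number of overlapping pairs of matches was 0 in both windows. S100a4 is at chr3:90603520-90603769 and S100a11 at chr3:93520246-93520495, both on the plus strand.
S100a4: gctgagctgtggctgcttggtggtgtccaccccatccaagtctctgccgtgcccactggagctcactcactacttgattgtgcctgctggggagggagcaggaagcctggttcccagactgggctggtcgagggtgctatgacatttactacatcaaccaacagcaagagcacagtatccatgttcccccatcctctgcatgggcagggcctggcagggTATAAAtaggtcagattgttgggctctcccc
S100a11: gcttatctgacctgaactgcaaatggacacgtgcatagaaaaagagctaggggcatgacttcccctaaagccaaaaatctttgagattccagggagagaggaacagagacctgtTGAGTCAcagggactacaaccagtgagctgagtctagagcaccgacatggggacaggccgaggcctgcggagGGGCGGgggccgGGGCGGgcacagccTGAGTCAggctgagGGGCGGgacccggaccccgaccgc
S100a4 held 1 TATA box and neither of the other motifs. S100a11 held 2 AP-1 elements, 3 GC boxes and no TATA box. Among other S100 genes, the windows of S100a13 and S100a1 held no match to any of these motifs. For S100a16 the window starting at 90540896 held 1 AP-1 element and 1 GC box, and that starting at 90537004 held no match. No window of S100a10 was searched, and a link between motifs and patterns over cells was not tested. Of 32851 upstream windows of the same length, 12.4% held the TATA box, 32.7% the GC box and 6.75% the AP-1 element. These matches describe letters, not bound sites.

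The stromal label was checked first. Of 15 stromal progenitor markers 13 had a row, all 13 were detected in 8 or more cells and 8 in all 15 cells, against 46.8% and 12.1% of all 8446 rows. Their mean ran from 5.28 in cell 13 and 5.85 in cell 12 to 8.85 in cell 11, and was 6.92 in cell 5. In cell 13 Pdgfra (0.20), Mmp2 (0.73) and Col1a1 (2.00), among others, were at their lowest, but Pdgfrb (7.66) and Vim (12.02) at their highest. The label therefore holds less well for cell 13. Of 10 macrophage and other immune markers only Csf1r and Cd14 had a row. Csf1r, the macrophage growth factor receptor, was detected in 4 cells, most of all in cell 2 at 6.39, Cd14 was detected in none, and their summed level ran from 0 to 6.39 over the cells. Csf1r was also detected in cells 1 (3.81) and 7 (3.35), the cells highest in S100a11, and its rho was 0.71 with S100a11, 0.47 with S100a10 and −0.02 with S100a4. The part of this marker in the results was not tested. Cells 5 and 13 carried mural (pericyte) markers, with means of 8.72 and 5.83 over the 5 mural markers that had a row, where no other cell exceeded 2.37. In cell 13 these markers were uneven, with Higd1b at 10.68 and Kcnj8 at 9.43 but Acta2 at 0.45 and Abcc9 at 1.68. The mural mean had a rho of −0.58 with S100a10 (r −0.55), of 0.20 with S100a4 (r −0.32) and of −0.35 with S100a11 (r 0.07), and its part in the results was not tested. Of 5 endothelial markers 2 had a row, Esam and Tek. Esam was detected in 7 cells, most of all in cell 13 (10.90) and cell 5 (7.83). Tek was detected in 1 cell, cell 1 (5.04), which was highest in S100a11. The part of these markers in the results was not tested. Of 6 mature adipocyte markers 4 had a row. Scd1 (7.05) and Pnpla2 (7.50) were highest in cell 12, the cell highest in S100a4, where Fasn was at 3.18 and Cfd at 0.64. Their part in the results was not tested. The 4 mitosis markers with a row had a mean of 11.1 in cell 13 and at most 2.60 elsewhere. Rows sharing the lowest value of their cell numbered between 930 and 1974, with the most in cells 11, 14 and 1. Spearman correlations of the 3 members with this number lay between −0.06 and 0.06. Read depth is unknown.

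S100a10 and S100a11 were among the most abundant transcripts of every cell, while S100a4 was abundant in 10 cells and far lower in the other 5. Each was detected in 15 of 15 cells (exact binomial 95% interval 78.2% to 100%, counting error only), as were 12.1% of all rows, and each also reached 5 FPKM in every cell. The authors' values follow 1 common distribution in all cells, so a level states a rank: 13.69 is the first, 13.26 the second and 12.98 the third of the 8446 rows in any cell.

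**Figure D1:**
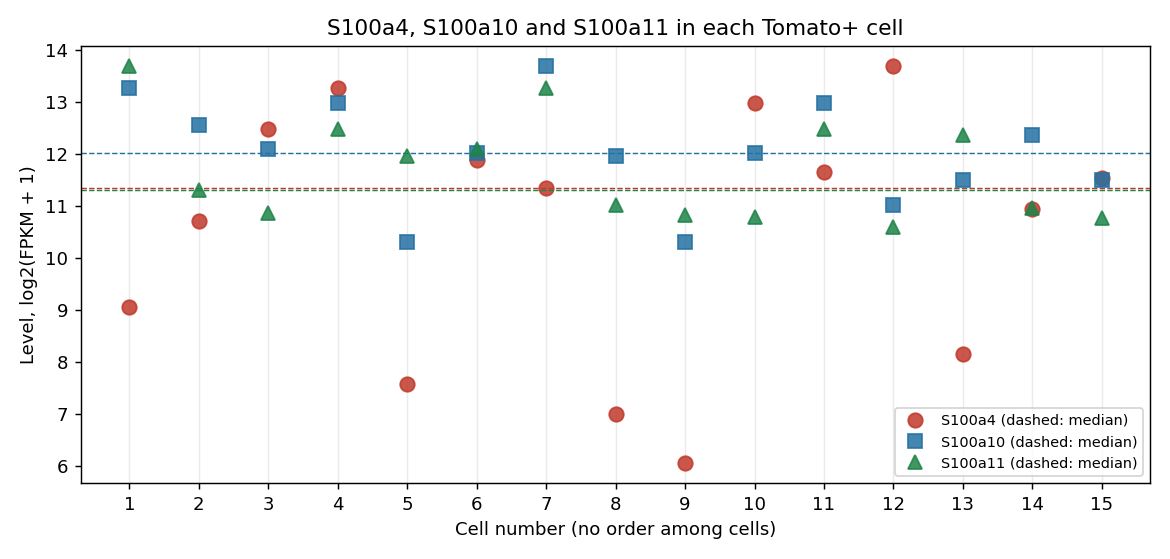
Level of S100a4 (circles), S100a10 (squares) and S100a11 (triangles) in each of the 15 cells, in log2(FPKM + 1), with dashed lines at the medians (11.34, 12.02 and 11.30). S100a10 and S100a11 stay at or above 10.30 and 10.60, while S100a4 is at 6.05 in cell 9.

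S100a4 had its lowest level, 6.05, in cell 9, a median of 11.34, and its highest level, 13.69, in cell 12, where it was the top row of the cell. It was also high in cells 4 (13.26), 10 (12.98) and 3 (12.47). Besides cell 9 it was low in cells 8 (6.99), 5 (7.58), 13 (8.15) and 1 (9.06). The range covers 65.3 to 13237 FPKM, and the rank of S100a4 within a cell ran from 1 to 1434. It stood among the 100 highest rows in 10 of 15 cells, and the 5 low cells are separated from the rest, the next being cell 2 at 10.72. Its SD over cells was 2.41, above that of 95% of the 100 genes nearest in mean, whose median SD was 0.89.

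S100a10 had its lowest level, 10.30, in cells 5 and 9, a median of 12.02, and its highest, 13.69, in cell 7. Its next values were 13.26 in cell 1 and 12.98 in cells 4 and 11. It stood among the 76 highest rows of every cell, with a median rank of 11. S100a11 had its lowest level, 10.60, in cell 12, a median of 11.30, and its highest, 13.69, in cell 1, followed by 13.26 in cell 7 and 12.47 in cells 4 and 11. It stood among the 55 highest rows of every cell, with a median rank of 25. Only 0.438% of all rows were among the 100 highest in 11 or more cells, and S100a10 and S100a11 belong to these. The SDs of S100a10 (1.00) and S100a11 (0.99) were close to the median of genes of like mean (0.91 for both).

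The order of the medians was S100a10, S100a4 and S100a11. S100a10 exceeded S100a11 by a median of 0.51 over cells, which is less than the SD of that difference (0.89), and it exceeded S100a4 by 1.43 with an SD of 2.19. S100a4 minus S100a11 had a median of −0.58 over cells and an SD of 2.68. Each median difference was smaller than its spread between cells, which is a description and not a test of the order. In single cells S100a4 was never the middle gene. It was above both others in 5 cells (3, 4, 10, 12 and 15) and below both in the other 10. The widest gaps were 4.96 between S100a10 and S100a4 in cell 8, and in the other direction −2.67 for S100a10 minus S100a4 in cell 12. FPKM divides by transcript length while the kit reads the 3' end. With the transcript length in kb multiplied back, the medians on the log2 scale were 11.47 for S100a10, 10.33 for S100a4 and 10.33 for S100a11.

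S100a10 and S100a11 went together over the cells, and S100a4 followed neither. Correlations are over 15 cells that share the kit, the normalization and possibly the animal, and they are descriptions. For S100a10 and S100a11 the Spearman rho was 0.67 and the Pearson r 0.60. Cells 1, 7, 4 and 11 held the 4 highest values of both genes. Without cells 5 and 9, which lie farthest from the S100a10 median, r was 0.75. Among 3948 other genes detected in 8 or more cells, S100a11 ranked 40 by rho with S100a10, and S100a10 ranked 17 by rho with S100a11. Cell 5, low in S100a10 and at 11.96 in S100a11, stood apart, and without cells 5 and 13 rho was 0.86. Without cells 1 and 7 it was 0.49.

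S100a4 had a rho of 0.27 with S100a10 (r 0.42) and of −0.19 with S100a11 (r −0.09). Without cells 8 and 9, farthest from the S100a4 median, r was 0.23 and −0.43. Both values are weak and move with single cells: without cell 12, which was highest in S100a4 and lowest in S100a11, the rho with S100a11 was 0.0022.

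**Figure D2:**
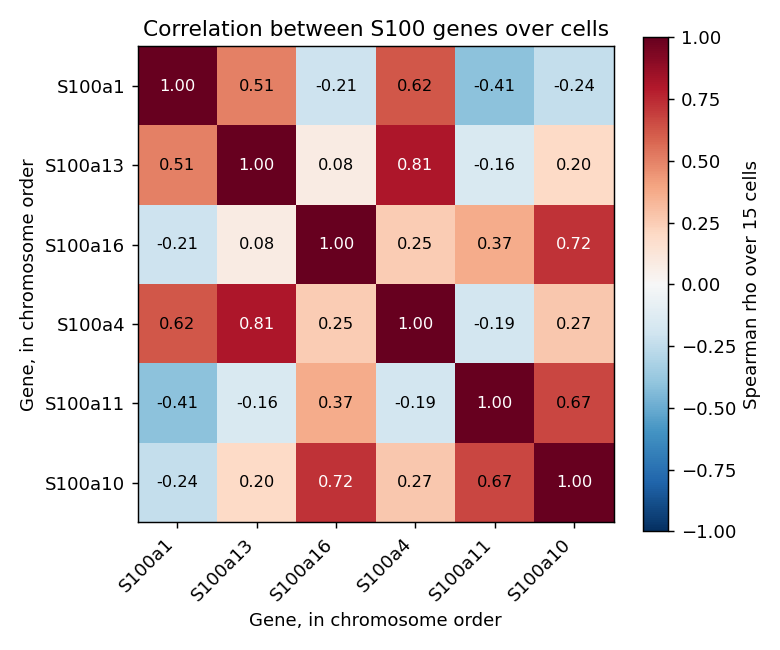
Spearman rho over 15 cells between the 6 S100 genes detected in 8 or more cells, in chromosome order on both axes, with colour from −1 (blue) to 1 (red). S100a4 is closest to S100a13 (0.81) and S100a1 (0.62), and S100a10 to S100a16 (0.72) and S100a11 (0.67).

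Of 17 S100 genes listed, 7 had a row and 6 were detected in all 15 cells. S100a13, which takes part in the export of proteins without a signal peptide, ran from 7.76 in cell 13 through a median of 9.49 to 11.25 in cell 10. It was the gene closest to S100a4 among the 3948 ranked, with rho 0.81 and r 0.79 (r 0.77 without cells 8 and 9). Cells 10, 12 and 4 were among the 4 highest in both genes. The gene lies 79.2 kb from S100a4. S100a1, best known from heart muscle, ran from 2.45 in cell 7 through a median of 9.11 to 11.88 in cell 12. Its rho with S100a4 was 0.62, but its r was 0.33. S100a1 and S100a13 face away from each other with 42 bases between them, and their rho was 0.51 (r 0.22, and 0.72 without cells 7 and 12).

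S100a16, a widely expressed member, ran from 4.25 in cell 5 through a median of 8.58 to 10.98 in cell 7. Its rho was 0.72 with S100a10 (r 0.64, and 0.59 without cells 5 and 9) and 0.37 with S100a11. Without cells 1 and 7 the rho was 0.57 with S100a10 and 0.04 with S100a11, and without cells 1, 11 and 14 it was 0.50 with S100a10. Although S100a16 is, among rows of the table, the nearest to S100a4 on its left side (60.6 kb), its rho with S100a4 was 0.25. S100b, the glial member, reached 1 FPKM in 6 of the 15 cells (40.0%, exact binomial 95% bounds 16.3% and 67.7%), most of all in cell 2 at 6.07 and in cell 12 at 5.17. It overlaps Dip2a on the opposite strand, so its reads are uncertain. S100a3, S100a5, S100a6, S100a7a, S100a7l2, S100a8, S100a9, S100a14, S100g and S100z were not analysed here.

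**Figure D3:**
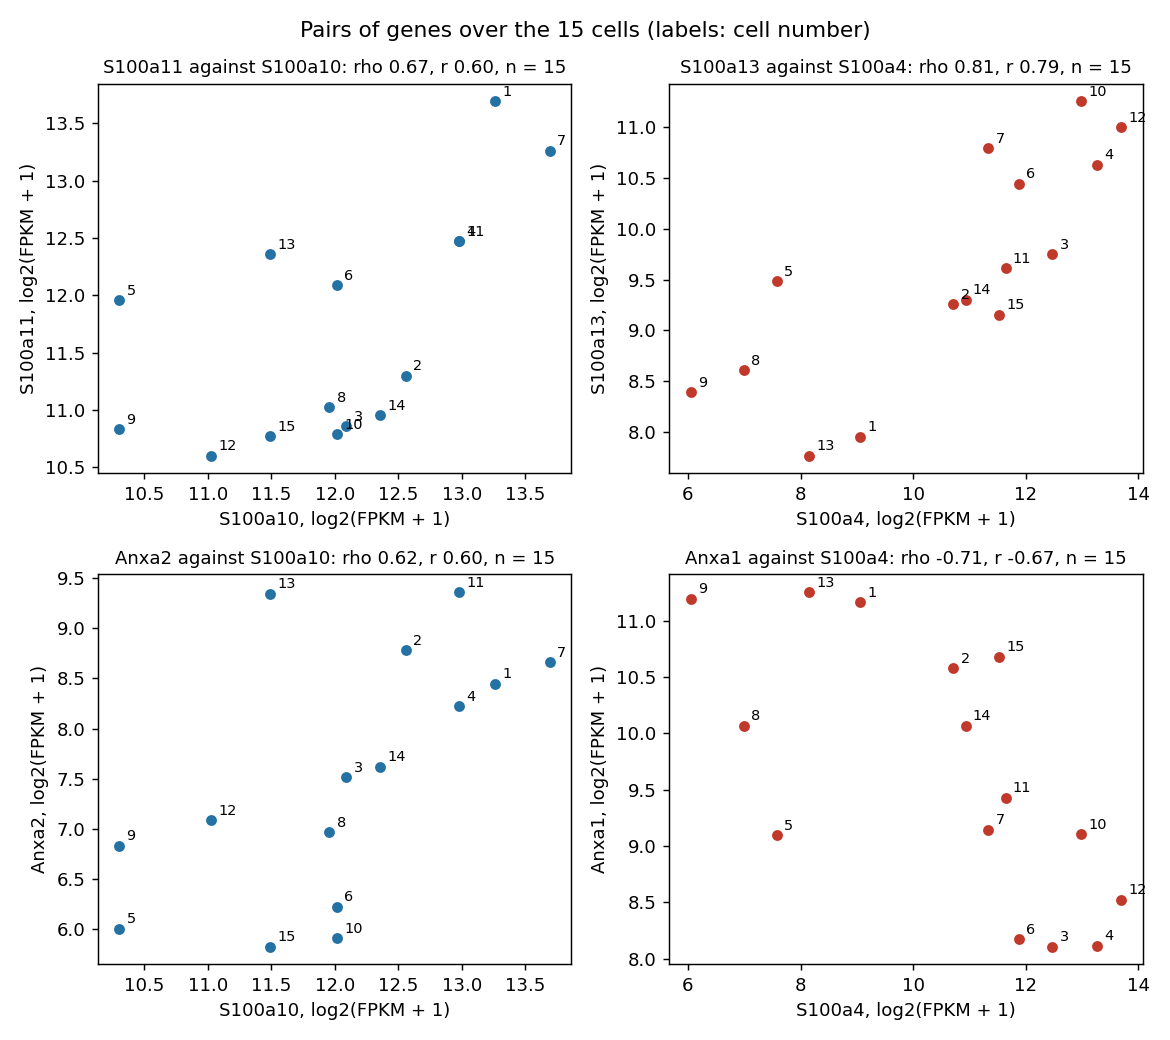
Pairs of genes over the 15 cells, each point a cell with its number and both axes in log2(FPKM + 1). S100a11 against S100a10 (rho 0.67), S100a13 against S100a4 (0.81) and Anxa2 against S100a10 (0.62) slope upward, and Anxa1 against S100a4 slopes downward (−0.71).

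Annexins are the calcium-dependent membrane proteins that S100 dimers bind. All 7 annexin genes with a row were detected in 8 or more cells, of 12 listed, against 46.8% of all rows. Anxa2, the partner of S100A10, ran from 5.83 in cell 15 through a median of 7.52 to 9.36 in cell 11. Its rho was 0.62 with S100a10 (r 0.60) and 0.65 with S100a11 (r 0.57), which ranks it 64 and 26 among the 3948 genes, and −0.06 with S100a4. Without the cells farthest from each S100 median, r was 0.53 with S100a10 and 0.51 with S100a11. Cell 13 was high in Anxa2 (9.34) at a modest S100a10 (11.49), and without it the rho with S100a10 was 0.80. Without cells 1, 11 and 14 it was 0.47. Anxa4 also followed S100a10 (rho 0.58, r 0.50).

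Anxa1, which S100A11 binds, did not follow S100a11 (rho 0.06). It ran from 8.11 in cell 3 through a median of 9.43 to 11.25 in cell 13, and was low where S100a4 was high (rho −0.71, r −0.67, and −0.63 without cells 8 and 9). Cells 9, 13 and 1, among the 5 lowest in S100a4, held the 3 highest Anxa1 values. With S100a4, 6 of the 7 annexins had a rho below 0 (47.2% of all genes), and Anxa1 and Anxa7 were at −0.5 or less (3.67% of all genes). With S100a11 all 7 were above 0 (51.5% of all genes), with a median of 0.38 against 0.01 over all genes, and Anxa2 alone was at 0.5 or more (3.57% of all genes). Cells 1 and 7 weigh here: without them Anxa2 had a rho of 0.60, Anxa1 was at −0.10, and the other 5 lay between 0.04 and 0.21.

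The plasminogen system, in which the S100A10 complex acts, showed no common pattern with S100a10. Of 9 genes listed 7 had a row and 6 were detected in 8 or more cells. Plat, tissue plasminogen activator, ran from 0.94 in cell 8 to 8.56 in cell 9 and had a rho of −0.02 with S100a10. Plgrkt, a plasminogen receptor, had the highest rho with S100a10, 0.43. The list's median rho with S100a10 was 0.04, against 0.03 over all genes. Serpine2, a protease inhibitor, and the enolase Eno1 were low where S100a4 was high (rho −0.60 and −0.58).

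Among further partners, 13 of 19 listed genes had a row and 11 were detected in 8 or more cells. Ahnak, the giant scaffold that the S100A10 and annexin A2 complex recruits, was detected in all cells with a median of 5.49 and had a rho of −0.08 with S100a10. Dlc1, a GTPase-activating protein that S100A10 binds, had a rho of −0.01 with S100a10 and of 0.60 with S100a4. Ppfibp1, encoding the liprin that S100A4 binds, had a rho of 0.11 with S100a4. The median rho of the list was −0.06, 0.02 and 0.01 with S100a4, S100a10 and S100a11. Tlr4, a receptor for secreted S100 proteins, reached 1 FPKM in 5 cells and was highest in cell 7 at 6.90, and Ager was not analysed here.

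Other calcium sensors split by gene. Of 25 cytosolic EF-hand genes 18 had a row and 16 were detected in 8 or more cells. Calm2, which encodes the calcium sensor calmodulin, had a median of 9.52. It was low where S100a4 was high (rho −0.74), as was Pdcd6, a calcium sensor of vesicle transport (−0.73), while Calm3 had a rho of 0.28. Capn2, a calcium-activated protease, followed S100a10 (rho 0.78) and S100a11 (0.56). It was lowest in cell 5 (0.78) and highest in cell 7 (6.50), cells that also held the lowest and the highest S100a10. As a list the cytosolic EF-hand genes had a median rho of 0.05 with S100a4 and 0.06 with each of the others, close to all genes. Of 18 EF-hand genes of the secretory pathway 16 had a row and 14 were detected in 8 or more cells, and Fkbp9, a prolyl isomerase of the endoplasmic reticulum, had a rho of 0.75 with S100a10. Nucb2 had 0.62 and Sparcl1 −0.50. With S100a10, 12 of the 14 were above 0, against 54% of all genes.

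Most genes of the actomyosin list, which holds actins, myosin chains and actin-binding proteins, had a rho below 0 with S100a4. Of 18 listed 17 had a row and 13 were detected in 8 or more cells. Of these 12 had a rho below 0 with S100a4 (47.2% of all genes) and 5 had −0.5 or less (3.67% of all genes), with a median of −0.34 against 0.02 over all genes. The 5, some of them chosen after their values were seen, were Tagln2 (−0.70), Tpm4 (−0.65), Cnn3 (−0.58), Myl12b (−0.53) and Myl12a (−0.51), which stabilize or form actomyosin fibres. The actins Actb and Actg1 were at −0.14 and −0.47, and the myosin light chains Myl6 and Myl9 at −0.31 and 0.04. Tagln2 was highest in cell 13 (11.05), where S100a4 was 8.15. With S100a11 the same list had 9 of 13 above 0 (51.5% of all genes) and a median of 0.16. Myh9, the myosin heavy chain that S100A4 binds, was detected in 4 cells. Cells 5 and 13, which carried mural markers, were low in S100a4, and without both the median of the list with S100a4 was −0.30.

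**Figure D4:**
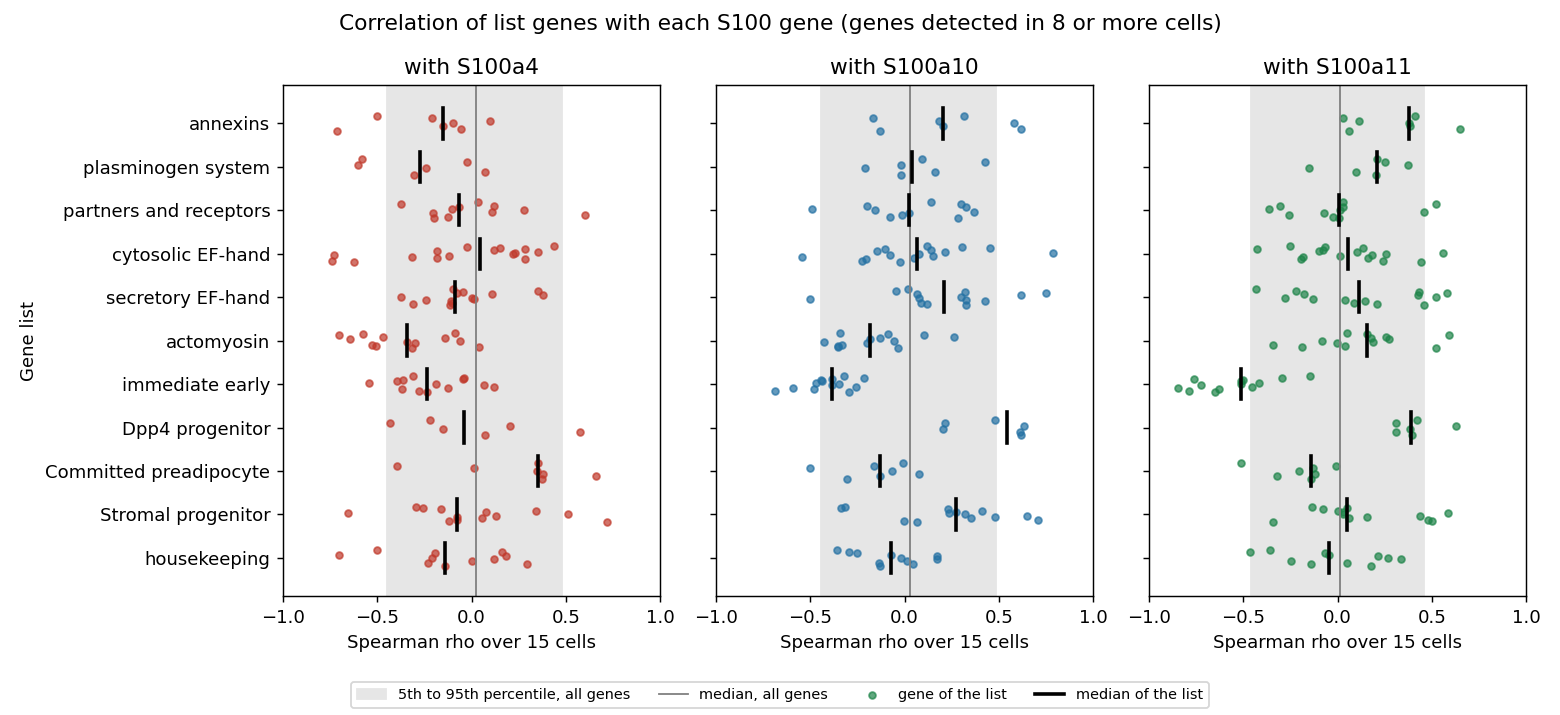
Spearman rho over 15 cells of each gene of 11 lists (points) with S100a4, S100a10 and S100a11 (panels), for genes detected in 8 or more cells. Black bars are list medians, the grey line the median and the grey band the 5th to 95th percentile of all genes; the immediate early list stands left of 0 in full with S100a10 and S100a11, and the Dpp4 list right of it.

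S100a11 and S100a10 were low where immediate early genes were high. These genes, such as Fos and Egr1, are switched on within minutes of a stimulus, tissue digestion included. All 13 had a row. With S100a11 all 13 had a rho below 0 (48.4% of all genes) and 9 had −0.5 or less (3.72% of all genes), with a median of −0.51. Junb had −0.84, the lowest rho with S100a11 of the ranked genes, followed by the growth inhibitor Btg1 with −0.84, and Fosb had −0.79. Junb ran from 3.43 in cell 1, where S100a11 was highest, to 9.78 in cell 9, where S100a11 was 10.83. With S100a10 all 13 were below 0 (46% of all genes) and 2 reached −0.5 or less (3.12% of all genes). With S100a4 11 were below 0 (47.2% of all genes) and 1 reached −0.5 or less (3.67% of all genes). The mean of the list had a rho of −0.33 with S100a4, and of −0.09 without cells 8 and 9. The mean of the list had a rho of −0.75 and an r of −0.69 with S100a11 (r −0.70 without cells 1 and 7). Cells 1, 11 and 14, which had the most rows at the lowest value, weigh here: without them the median with S100a11 was −0.36.

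**Figure D5:**
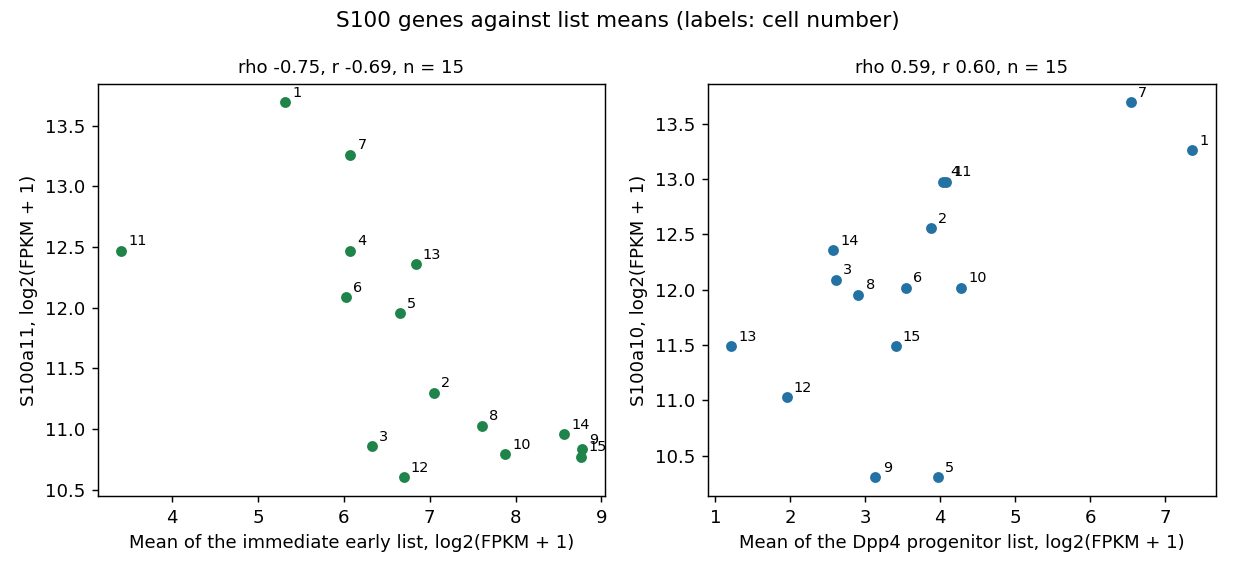
S100a11 against the mean of the immediate early list (left; rho −0.75) and S100a10 against the mean of the Dpp4 progenitor list (right; rho 0.59), each point a cell with its number, in log2(FPKM + 1). Cells 1 and 7 lie at the high end of both S100 genes and of the Dpp4 list.

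S100a10 was high where markers of the Dpp4 progenitor stage were high. Dpp4+ progenitors are fibroblast-like cells of the connective tissue sheath of fat, upstream of committed preadipocytes. Of 10 markers 9 had a row and 6 were detected in 8 or more cells. All 6 had a rho above 0 with S100a10 (54% of all genes) and with S100a11 (51.5% of all genes). The median was 0.55 with S100a10 and 0.39 with S100a11, against 0.03 and 0.01 over all genes. Cd248 had 0.63, Sema3c 0.62 and Cd55 0.61 with S100a10, 3 of the 6 at 0.5 or more (4.61% of all genes). Cells 1 and 7, the 2 cells high in Dpp4 (7.93 and 6.87), were also the 2 highest in S100a10 and in S100a11. Without these 2 cells the median was 0.35 with S100a10 and 0.07 with S100a11. With S100a4 the list's median was −0.04.

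Markers of committed preadipocytes, the next stage toward the fat cell, were mostly above 0 in their rho with S100a4, at moderate values. With S100a10 and S100a11 they were mostly below 0. Of 10 markers 7 were detected in 8 or more cells, and 6 of these had a rho above 0 with S100a4 (52.7% of all genes) with a median of 0.35. Lpl, the lipoprotein lipase, had 0.66, the 1 value of the list at 0.5 or more (4.36% of all genes). Sparcl1 was at 0.01 and Bgn, a matrix proteoglycan gene, at −0.40, and the mean of the list had a rho of 0.37 with S100a4 (r 0.28). Lpl was at 1.19 in cell 9, the lowest in S100a4, and at 10.81 in cell 12, the highest in S100a4, Scd1 and Pnpla2. Without cell 12 the median of the list with S100a4 was 0.28. With S100a10 6 of the 7 were below 0 (46% of all genes), with a median of −0.13. With S100a11 all 7 were below 0 (48.4% of all genes), with a median of −0.14. The mean of the list, over all 10 markers, had a rho of −0.43 with S100a10 (r −0.38) and of −0.52 with S100a11 (r −0.45). Without the 2 cells farthest from each S100 median, its rho was 0.43 with S100a4, −0.75 with S100a10 and −0.26 with S100a11. The 13 stromal progenitor markers showed no common direction with S100a4, with a median rho of −0.08. Of these 6 were above 0 (52.7% of all genes) and 7 below (47.2% of all genes). Their ends were Pdgfra, the receptor of fibroblastic progenitors (0.72), and Vim (−0.66). With S100a10 their median was 0.27 and 10 of 13 were above 0 (54% of all genes). Cd34, the surface marker of fat progenitors (0.71), and Col3a1 (0.65) were the 2 at 0.5 or more (4.61% of all genes). Thy1 (−0.34) and Cd44 (−0.32) went the other way. With S100a11 the median was 0.05. For comparison, the 11 housekeeping genes detected in 8 or more cells had median rhos of −0.14, −0.07 and −0.05 with S100a4, S100a10 and S100a11.

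The genes closest to S100a4 after S100a13 were Rpl12 (rho 0.81), a ribosomal protein gene, Lasp1 (0.78), which encodes an actin-binding protein, Tmbim6 (0.78) and Manbal (0.78). The most opposed were Laptm4b (−0.85), a lysosomal membrane protein gene, the matrix gene Emilin1 (−0.82) and Irf2 (−0.76). Laptm4b was at most 0.35 in cells 3, 4, 6 and 12, where S100a4 was 11.88 or more, but 2.45 in cell 10, where S100a4 was 12.98. The closest to S100a10 were Spcs3 (0.84), a signal peptidase subunit, Ddah2 (0.84), Ramp2 (0.83), a partner of the adrenomedullin receptor, Rae1 (0.81) and Tspo (0.80), and the most opposed Gipc1 (−0.92), Med31 (−0.85) and Tmem98 (−0.85). Spcs3 was detected in 9 cells and Gipc1 and Tmem98 in 8, so part of their order rests on values below 1 FPKM. For Ddah2 r was 0.54. Gipc1, a trafficking adaptor, was at 8.01 in cell 5 and 7.33 in cell 13, and was below 1 FPKM in the 7 cells with the highest S100a10. The closest to S100a11 were Serpinb9 (0.83), an inhibitor of granzyme B, Prr13 (0.79), Ncor1 (0.75), Sap18 (0.74) and Dnajc10 (0.72), and the most opposed Junb, Btg1 and Nip7 (−0.83). Serpinb9 was detected in 9 cells. For the mean of the 3 members Cd55 led (0.82), followed by Ccdc80, Gfpt1, Fxyd1, Htra1, St13, Lasp1, C3, Emilin2 and Svep1 (down to 0.72), and Srsf2, Rnf2, Tmem98, Pxk and Hes1 were the most opposed (−0.82 to −0.78). With S100a11 alone the 10 highest had a rho of 0.11 (Svep1) to 0.36 (Gfpt1). Their rho was 0.49 (Emilin2) to 0.78 (Lasp1) with S100a4 and 0.42 (Lasp1) to 0.65 (Ccdc80) with S100a10. The order by the mean therefore does not name genes that follow all 3 members. Over all 3949 genes detected in 8 or more cells, S100a4 included, the 5th and 95th percentiles of rho with S100a4 were −0.45 and 0.48.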

How the data were processed

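Per the labels' protocols, the 15 single-cell libraries came from Nextera XT after cDNA synthesis with SMART-Seq v4 3' DE. TopHat2 and Cufflinks and the build GRCm38 are named in the submitters' processing notes, with no versions or settings. The deposited table is named as FPKM, but the authors' deposited values are on a log scale ending at 13.69, read here as log2(FPKM + 1). The base is inferred: so read, the mean sum per cell is 592948 FPKM. Sorted columns were the same to within 0.0354 above 0.2, as quantile normalization would leave them, a step that no label records. With 1 distribution for every cell a level states a rank, and depth is unknown. The table has 8446 rows, 18 empty columns and 0 other columns with values.

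Columns were tied to cells by the number in the sample title. Of the row identifiers 8431 matched the gene name table, and 15 symbols turned into dates were restored from it. Spearman and Pearson correlations over cells were computed for every row (Python 3.11.15, numpy 2.4.6, scipy 1.17.1) and checked on simulated data. Genes detected at 1 FPKM or more in 8 or more cells were ranked. Named were, per member, the 5 highest and 3 lowest by rho (10 and 5 for the mean of the members), without predicted genes and pseudogenes, and, per list, genes leading by median (4) or at either end by rho (2); further list genes were picked after their values were seen. Leaving out cells 5 and 13, or 1 and 7, and every alternative for Anxa2, for pairs with another S100 gene and for list medians per member were also chosen after seeing the data. The members and the 20 gene lists were chosen with earlier results of these data known. A rho of 0.5 or more, or −0.5 or less, is counted as a description and not as a call of a test. Coordinates and coding sequences are from GENCODE M21 on GRCm38, upstream sequences from RefSeq on GRCm38.p6. A gene of the cytosolic EF-hand list is not reported here by name.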

Additional observations from a re-analysis of the deposited data

How the results depend on the processing

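Under each alternative on the log2 scale, the median levels of the 3 genes moved by less than 1 SD between cells, and each gene was detected in at least 13 of the 15 cells. At 5 FPKM in place of 1, tried for 7 lists, the genes detected in 8 or more cells were 12 in place of 16 for cytosolic EF-hand genes and 11 in place of 13 for actomyosin. S100a4 with S100a13 stayed between 0.78 and 0.88 under 6 alternatives, and S100a11 with Anxa2 between 0.56 and 0.70, while the pairs among the 3 genes moved by more than 0.1 under several. The rho of 0.67 between S100a10 and S100a11 ran from 0.59 to 0.78 with each cell left out in turn. It was 0.77 without the 2 cells farthest from the median and 0.52 without the cells with the most rows at the lowest value (1, 11 and 14). Without cells 5 and 13, which carried mural markers, it was 0.86, and without cells 1 and 7 it was 0.49. The rho of 0.27 between S100a4 and S100a10 ran from 0.11 (without cell 9) to 0.45 (without cell 12) with each cell left out. It was 0.0083 without the 2 farthest cells, 0.39 without cells 1, 11 and 14, −0.0055 without cells 5 and 13, and 0.41 without cells 1 and 7, while Pearson's r was 0.42 on the log2 values and −0.017 on linear FPKM. The rho of −0.19 between S100a4 and S100a11 ran from −0.32 (without cell 4) to 0.0022 (without cell 12) with each cell left out, and was −0.39 without the 2 farthest cells, with an r of −0.086. The cause of these shifts was not tested. Of the 5 genes most similar in pattern to each member, 5 for S100a4, 4 for S100a10 and 5 for S100a11 were among the 100 highest by Pearson's r, and all 5 of each without cell 13 or without cells 1, 11 and 14. Requiring detection in all 15 cells left 2 of the 5 for each member, a count set by that requirement, since the other 3 were not detected in every cell. No paired analysis was possible because the cells form 1 group. With 15 cells of an unnamed number of mice and unknown depth, a gene at 0 cannot be told from one missed.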
